A study of Mus musculus with 2 samples.

Results

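Contigs are stretches of the genome that RNA-seq reads cover without a break on one strand. Adult mouse thymus gave 777779 of them, and the 16513 described here (2.12%) each lie over a contig read from the opposite strand. Each of these contigs is shorter than 5000 bases and shares at least 200 bases with its opposite partner, and both have at least the median level of all contigs, 0.167. The contigs were thus selected on their measured strand, overlap and level. The level is the authors' value for a contig, and it was proportional to mean read coverage per base, with the median level equal to 3.90 reads per base. The rule used strand, length, overlap and level, so these properties are descriptions of the contigs and not findings.

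The RNA came from 1 group of mice of the inbred strain C57BL/6J, aged 8 weeks, with no transgene or treatment named in the labels. It is labelled as polyadenylated, longer than 200 bases and depleted of ribosomal RNA, and it was made into strand-specific libraries. The 2 libraries are named biological replicates 1 and 2, both from pooled male and female littermates with 1 donor entry, so the spread between them may be technical in part. The contig and junction lists hold both libraries together, so each contig has 1 level with no replicate error. The gene tables give a value per library, and 2 per-replicate entries in the junction names were not used, since no label ties them to a sample. There is no second tissue or condition, so nothing below compares conditions.

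Messenger RNAs can overlap when neighbouring genes on opposite strands run into each other. In tail-to-tail (convergent) pairs the 3′ ends meet, and in head-to-head (divergent) pairs the starts lie back to back, often in 1 shared CpG-rich promoter. Polymerases also start transcripts against the direction of a gene, at its promoter or inside its introns, and some of these antisense RNAs are spliced and polyadenylated long noncoding RNAs. Because the libraries keep the strand, both RNAs of such a place appear as separate contigs.

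The promoters of 3 divergent gene pairs with high contig levels and of 1 divergent pair at a T cell gene are shown first, since their geometry carries the head-to-head results. They are RefSeq windows on GRCm38.p6, from 250 bases before the annotated start to 50 bases after it, printed 5′ to 3′ on the named gene's strand. Capitals mark matches on either strand to the TATA box TATAAA, the CCAAT box CCAAT, the GC box GGGCGG or an ETS site CCGGAAG. The Tap1 window is chr17:34187306-34187605, plus strand. Its partner Psmb9 starts on the other strand at base 25 of this window, 226 bases from the Tap1 start at base 251.
Tap1: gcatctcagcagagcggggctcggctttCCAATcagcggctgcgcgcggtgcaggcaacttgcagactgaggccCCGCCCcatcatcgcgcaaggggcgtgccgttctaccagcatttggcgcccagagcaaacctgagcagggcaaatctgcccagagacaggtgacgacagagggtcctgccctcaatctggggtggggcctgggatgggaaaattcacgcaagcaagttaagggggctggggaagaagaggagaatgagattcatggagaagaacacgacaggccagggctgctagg
The Fgfr1op2 window is chr6:146577653-146577952, plus strand, and Ints13 starts on the other strand at base 183, only 68 bases away.
Fgfr1op2: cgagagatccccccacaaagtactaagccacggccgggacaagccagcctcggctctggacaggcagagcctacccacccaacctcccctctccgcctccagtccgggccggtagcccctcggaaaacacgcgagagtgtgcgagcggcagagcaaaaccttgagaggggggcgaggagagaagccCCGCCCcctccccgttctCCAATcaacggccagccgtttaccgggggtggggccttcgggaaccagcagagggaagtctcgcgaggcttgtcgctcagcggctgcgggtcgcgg
The Rxrb window is chr17:34031562-34031861, plus strand, and Slc39a7 starts on the other strand at base 129, 122 bases away.
Rxrb: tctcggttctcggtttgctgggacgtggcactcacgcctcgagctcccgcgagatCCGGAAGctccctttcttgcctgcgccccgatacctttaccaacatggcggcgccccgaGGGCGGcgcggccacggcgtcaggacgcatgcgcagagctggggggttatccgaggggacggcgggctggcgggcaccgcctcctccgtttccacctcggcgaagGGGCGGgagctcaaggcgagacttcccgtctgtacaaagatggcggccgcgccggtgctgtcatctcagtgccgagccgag
The gene models of 2900079G21Rik and Arpp21 overlap by 1662 bases in GENCODE M21, so the overlapping Arpp21 contig need not begin in the Arpp21 window printed here. Their closest RefSeq starts are 555 bases apart, so these windows do not overlap: chr9:112234027-112234326 on the plus strand and chr9:112233673-112233972 on the minus strand.
2900079G21Rik: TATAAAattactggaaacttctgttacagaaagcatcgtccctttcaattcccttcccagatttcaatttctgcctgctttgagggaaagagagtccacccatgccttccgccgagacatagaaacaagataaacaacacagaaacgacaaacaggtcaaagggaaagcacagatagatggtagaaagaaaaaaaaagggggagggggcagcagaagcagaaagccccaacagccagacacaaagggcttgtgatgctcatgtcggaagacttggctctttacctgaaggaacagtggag
Arpp21: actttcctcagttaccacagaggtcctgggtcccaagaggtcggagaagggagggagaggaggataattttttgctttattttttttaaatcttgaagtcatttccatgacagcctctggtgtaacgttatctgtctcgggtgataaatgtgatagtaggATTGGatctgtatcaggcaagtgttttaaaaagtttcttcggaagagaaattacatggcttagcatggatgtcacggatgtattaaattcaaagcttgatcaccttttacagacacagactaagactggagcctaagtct
The first 3 windows hold 15, 26 and 37 CpG dinucleotides, and those of 2900079G21Rik and Arpp21 hold 5 each. The median over all 32851 RefSeq promoter windows was 7. A match to these letters is a description and not a bound site.

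Markers of the labelled tissue were present in both libraries. The thymocyte genes Cd3e, Cd4, Cd8a, Rag1 and Lck ranged from 254 to 1454 TPM (a level scaled by transcript length and library size). The epithelial genes Foxn1, Psmb11 and Krt5 ranged from 22.7 to 134 TPM, the B cell genes Cd79a and Ighm from 30.2 to 1019 TPM, and the erythroid gene Hbb-bs was at 1311 and 1811 TPM. The gene tables summed to 49.3 and 63.1 M estimated counts.

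The overlapping contigs were longer, and somewhat higher, than all contigs within the same limits of length and level. Their median length was 736 bases, against 554 bases over all 272548 contigs of 200 to under 5000 bases at or above the median level, of which they are 6.06%. Their median level was 0.523, against 0.399, with quartiles of 0.275 and 1.53 and a maximum of 238. They were split evenly between the strands, with 8304 on plus and 8209 on minus. Most (14778) had a single partner, 1735 had 2 or more, and no contig had more than 6. The authors' reproducibility value, in which lower is taken to be more reproducible, was at most 0.07 in these contigs, while it reached 0.57 among all contigs at or above the median level. The latter set is larger and includes contigs under 200 bases, so these maxima do not compare the reproducibility of the sets.

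The share of contigs with an opposite partner was larger at middle and high levels. It was 4.75% at levels from 0.167 to 0.3, 7.98% from 1 to 3 and 8.73% from 10 to 30. At levels of 100 or more it was 3.91%, or 9 of 230 contigs (95% exact binomial interval 1.80 to 7.30%, which covers counting error only). By chromosome the share was largest on chromosomes 11 (8.25%), 17 (7.52%) and 7 (7.43%) and smallest on X (3.16%) and 13 (4.10%). None of the 5 eligible contigs on the Y chromosome and none of the 5 on the mitochondrial genome had a partner, counts too small to set a share.

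The limits of the rule did not fall at a natural gap. There were 411 overlaps of 200 to 219 bases, inside the rule, and 400 of 180 to 199 bases outside it, with median lower levels of 0.266 and 0.249. Lower levels of 0.167 to 0.177 were found in 546 overlaps inside, and levels of 0.157 to 0.166 in 502 outside. Contigs of 4800 to 4996 bases numbered 57 inside, against 56 of 5002 to 5195 bases outside. A further 46 overlaps joined 2 contigs of 5000 bases or more and are not included.

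The contigs formed 9861 overlaps, with a median shared length of 423 bases and a longest of 4713 bases. One contig lay inside the other in 5336 overlaps (54.1%), 2809 (28.5%) were head to head and 1716 (17.4%) were tail to tail. The higher contig of an overlap had a median level of 1.49 and the lower one of 0.33, and the median ratio was 3.26-fold (1.70 on the log2 scale). In 3211 overlaps (32.6%) the levels were within 2-fold of each other.

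Splice junctions mark spliced transcripts on each strand, and the rule did not use them. A junction with at least 10 reads on its own strand was touched by 31.9% of the overlapping contigs. Among the other 256035 contigs within the same limits of length and level, 27.7% touched one. These others were not matched to the overlapping contigs, which were longer and somewhat higher by median, as given above. Whether the shares differ at equal length and level was not tested. A junction on the opposite strand was touched by 21.03% of the overlapping contigs, against 0.244% of the others, a contrast that follows from choosing contigs with an opposite partner. Within an overlap, the higher contig touched a junction of its own strand in 57.3% of cases, and the lower contig in 14.4%. A limit of 10 reads is harder to reach at a low level, so these shares do not compare how often the RNAs are spliced. The lower contig touched a junction of the opposite strand alone in 26.8% of cases, and the higher contig in 5.35%. Both contigs had junctions of their own strand in 1043 overlaps (10.6%).

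Genes were tied to contigs through the lengths and spacing of annotated introns, which sorted the overlaps into 3 classes. In 782 overlaps both contigs were tied to a gene, in 4837 one was, and in 4242 neither was. The classes differed in level. A tie needed a junction of at least 10 reads, which a contig at a low level reaches less easily. The levels and ratios of the classes thus follow in part from the sorting. With 2 genes, the medians were 8.47 for the higher contig and 2.39 for the lower one, a median ratio of 2.70-fold. With 1 gene they were 2.61 and 0.373, a ratio of 6.00-fold, and with no gene 0.617 and 0.265, a ratio of 1.96-fold. Tail-to-tail overlaps made up 29.8% of those with 2 genes (95% exact binomial interval 26.6 to 33.1%) and 14.5% of those with 1 gene (13.5 to 15.5%). These intervals cover counting error only and treat overlaps as independent, although overlaps can share a contig or a gene. A gene needed 2 matched introns, so genes without introns or with a single one count as no gene here.

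**Figure D1:**
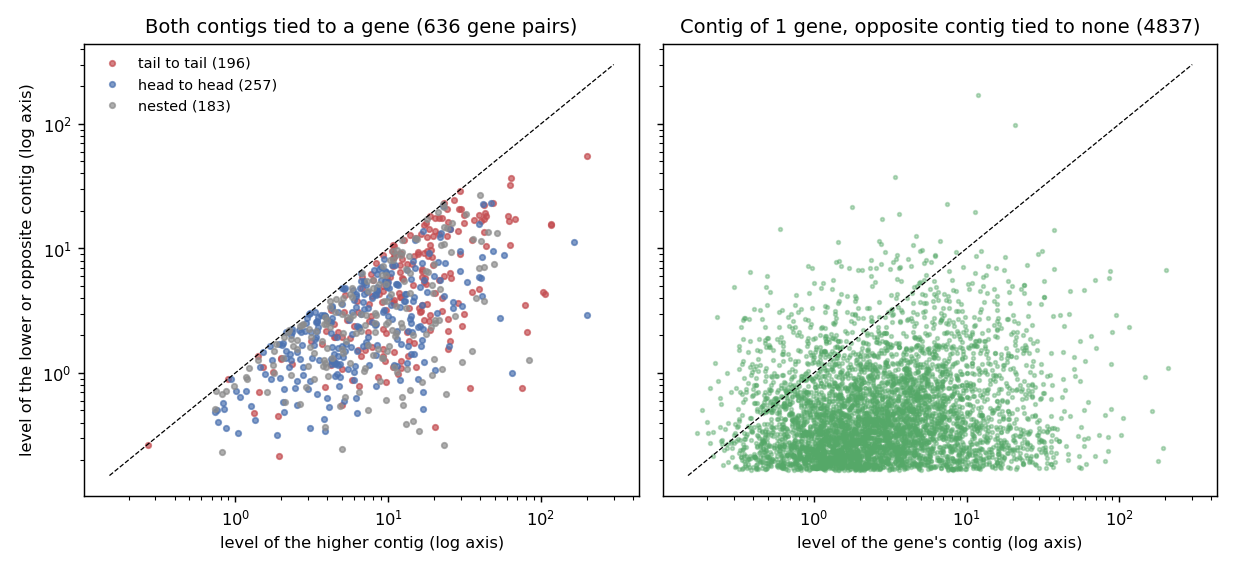
Contig levels on log axes, one point per gene pair or overlap. Left: 636 gene pairs, the higher contig on the x axis and the lower one on the y axis, coloured by geometry. Right: 4837 overlaps of a gene's contig (x) with an opposite contig tied to no gene (y). The dashed line marks equal levels. Points on the right crowd just above the level limit of 0.167, and 391 lie above the line.

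The overlaps with a gene on each strand came from 636 gene pairs and 1197 genes. Both genes were protein-coding in 552 pairs and one was in 84. In 430 pairs (67.6%) the gene models of GENCODE M21 also overlap on GRCm38, and in 409 (64.3%) their exons do. In the other 206 pairs the contigs overlapped although the annotated genes lie apart, by a median of 140.5 bases. Each contig was named by the gene with most junction reads on it, and 36 of the 782 overlaps touch 3 or more genes. In those, another touched gene may lie between the named ones. Annotated overlap was present in 140 of 196 tail-to-tail pairs (71.4%), 145 of 257 head-to-head pairs (56.4%) and 145 of 183 nested pairs (79.2%).

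Both genes of these pairs were usually well expressed. Of 622 pairs with both genes in the tables, 603 had both at 1 TPM or more and 510 at 5 TPM or more. The higher gene of a pair had a median of 64.0 TPM and the lower one of 17.1 TPM. Genes of the pairs had a median of 34.0 TPM (n = 1185), against 13.6 TPM for all 14360 genes of at least 1 TPM. The level limit of the rule selects expressed genes, so this difference is a description. Across the 622 pairs, the log2 contig ratio and the log2 TPM ratio had a Spearman correlation of 0.593 and a Pearson correlation of 0.658, and the same gene was higher by both measures in 440 pairs (70.7%). Points of this relation share libraries and reads. A contig can hold only a part of its gene, so contig level and gene TPM are unlike measures, also in the pairs below. Whether the gene counts used the strand is not given, so reads of overlapping genes may have been shared between them, also in the TPM values below.

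The highest overlap of a pair was that of Rnf167, which encodes a ubiquitin ligase, and Pfn1, which encodes the actin-binding protein profilin 1. Their contigs met tail to tail on mm9, with Pfn1 on minus at chr11:70463876-70470294 and Rnf167 on plus at chr11:70463871-70465278. The shared stretch was 1403 bases. The Pfn1 contig had a level of 200 and 32671 junction reads, and the Rnf167 contig a level of 54.8 and 2898 junction reads. The Pfn1 contig is longer than 5000 bases and enters as a partner only. Pfn1 had 3770 and 2535 TPM in replicates 1 and 2 (3153 ± 874, SD, n = 2), and Rnf167 had 238 and 273 TPM (255 ± 24.2). The 2 genes do not overlap in GENCODE M21: a gap of 428 bases separates Rnf167 (chr11:70647235-70651421 on GRCm38) from Pfn1 (chr11:70651850-70654644). The ranges of the genes over the libraries were far apart.

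Tail-to-tail geometry was found in 9 of the 15 pairs with the highest lower contig. Dalrd3 had a level of 64.1 and Wdr6 of 37.1 over 1679 shared bases on chromosome 9. On the same chromosome, Shisa5 had 62.7 and the contig opposite had 32.3 over 3196 bases, a contig tied to Atrip, a partner of the DNA damage kinase ATR, and Trex1, a DNA exonuclease. Shisa5 was at 623 and 635 TPM and Atrip at 41.0 and 41.3 TPM, and their annotated models lie 155 bases apart. The contigs of Mrps34, a subunit of the mitochondrial ribosome, and Mapk8ip3, a scaffold of JNK signalling, were at 29.6 and 29.0. Elovl1, a fatty acid elongase, was at 27.0 and Cdc20, an activator of the anaphase-promoting complex, at 24.6 over 262 bases. Ache, which encodes acetylcholinesterase, and Srrt, an RNA-processing factor, were both at 23.3, with Ache at 75.6 and 76.6 TPM and Srrt at 93.2 and 83.7 TPM.

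A pair of interferon-induced genes was among these. Ifi27l2a had a contig level of 48.4, and Ifi27 of 23.1, over 2174 bases on chromosome 12. Ifi27l2a was at 1228 and 1681 TPM and Ifi27 at 385 and 428 TPM, and their annotated models lie 1927 bases apart. Fastk at 42.3 and the anion exchanger gene Slc4a2 at 22.3 shared 802 bases. Taf10, a subunit of the general transcription factor TFIID, at 24.4 and the integrin-linked kinase gene Ilk at 20.9 shared 3638 bases. In both of these last pairs the annotated exons overlap as well, by 1141 and 2106 bases.

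Divergent overlaps among the top 15 joined Maf1 with Sharpin, Tap1 with Psmb9 and Fgfr1op2 with Ints13. Tap1 encodes a subunit of the peptide transporter of antigen presentation and Psmb9 a subunit of the immunoproteasome, which cuts the peptides. Their contigs shared 1677 bases on mm9, with Tap1 at chr17:34323959-34325714 (plus) at a level of 41.9 and Psmb9 at chr17:34318979-34325635 (minus) at 22.8. The Tap1 gene was at 170 and 156 TPM and Psmb9 at 206 and 229 TPM, so the higher contig belonged to the lower gene. This Tap1 contig holds only a part of its gene, and the next plus-strand contig was at 22.3. The plus-strand contig after that, at 50.8, runs to 14.8 kb from the centre of the overlap, so it need not hold Tap1 alone. The shared stretch is longer than the 226 bases between the closest RefSeq starts, printed above. In GENCODE M21 the models of Tap1 and Psmb9 overlap by 212 bases and those of Fgfr1op2 and Ints13 by 633 bases. Those of Maf1 and Sharpin lie 182 bases apart. Maf1, a repressor of RNA polymerase III, had a contig level of 47.4 and Sharpin, a subunit of a linear ubiquitin ligase, of 23.3. Fgfr1op2 and Ints13, a subunit of the Integrator complex, were at 22.8 and 22.0, and at 95.01 and 76.4 TPM against 31.3 and 34.6 TPM.

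**Figure D2:**
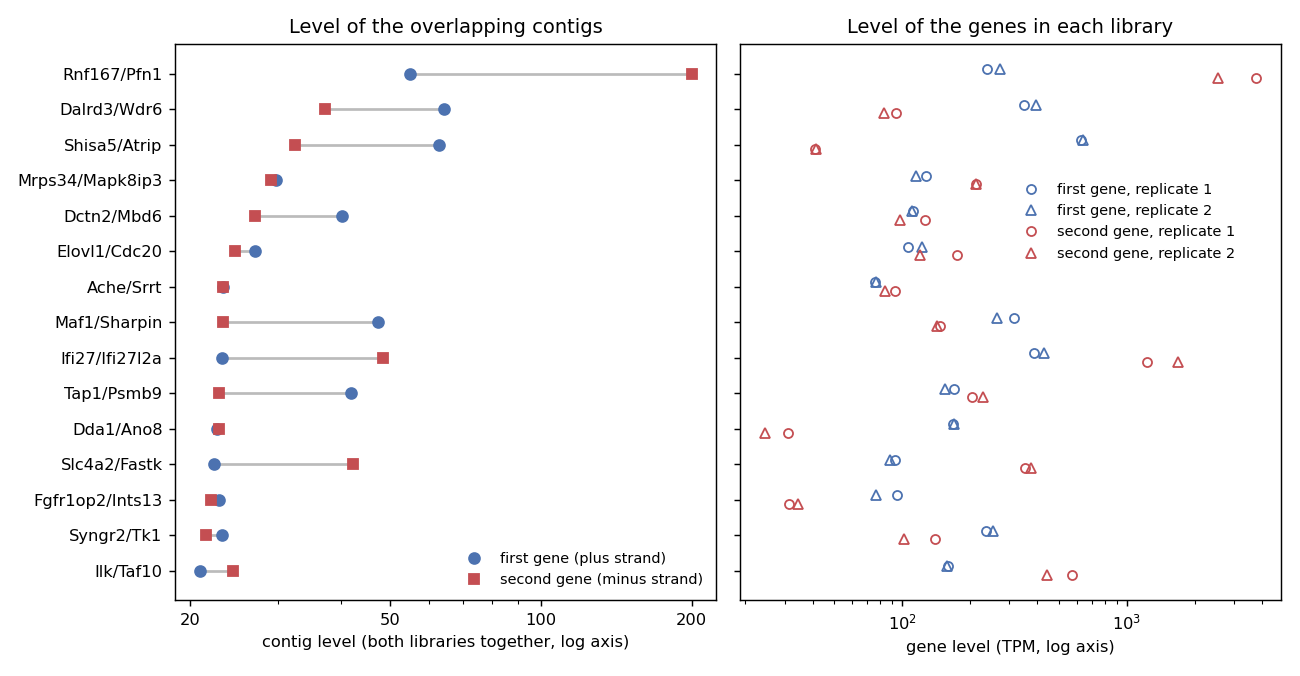
The 15 gene pairs with the highest lower contig, from top to bottom. Left: level of each contig, blue circles for the plus-strand gene and red squares for the minus-strand gene, on a log axis. Right: TPM of both genes in replicates 1 (circles) and 2 (triangles), on a log axis. Contigs of Ache and Srrt coincide at 23.3, while Pfn1 at 200 and Rnf167 at 54.8 stand apart.

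Nested overlaps among the top 15 were those of Dctn2 and Mbd6, Dda1 and Ano8, and Syngr2 and Tk1. Dctn2, a subunit of dynactin, had a contig level of 40.1 and Mbd6 of 27.0, and their annotated models end 5 bases apart. The Ano8 contig of 1281 bases, at 22.8, lay inside a Dda1 contig of 7949 bases at 22.6. Contig and gene level went apart there, with Ano8 at 31.1 and 24.5 TPM and Dda1 at 168 and 171 TPM. The contig of Tk1, the thymidine kinase of dividing cells, was at 21.5 inside a Syngr2 contig at 23.1. Tk1 was at 140 and 102 TPM and Syngr2 at 236 and 253 TPM.

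The longest overlap of a pair covered 4348 bases, the whole contig of the heme transporter gene Slc48a1 inside the contig of Hdac7, a class IIa histone deacetylase of thymocytes. Hdac7 was at a contig level of 51.5 and at 829 and 669 TPM, and Slc48a1 at 13.4 and at 51.9 and 49.5 TPM. Their annotated models share 29 bases, far fewer than the contigs do. A further 8 of the 10 longest, from 3959 to 3236 bases, were 1110008P14Rik with Ciz1, Carm1 with Yipf2, Taf10 with Ilk, Adgre5 with Ddx39, Tmem208 with Fhod1, Fam149b with the noncoding gene Gm30054, Vamp1 with Tapbpl, and Ctsa with Pltp. Adgre5 (CD97), an adhesion receptor of leukocytes, had a contig level of 36.4 and Ddx39 of 16.9 over 3499 bases, with annotated models that overlap by 3642 bases. Ctsa, which encodes cathepsin A, was at 32.3 and Pltp, which encodes the phospholipid transfer protein, at 18.8. The Tapbpl contig, of a peptide editor of MHC class I, was at 10 and lay over 3295 bases of a Vamp1 contig at 23.1 in which no annotated exons of the 2 genes overlap.

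Balance was judged among 595 gene pairs whose lower contig was at 0.63 or more, the upper quartile of lower levels over all overlaps. The 5 most balanced were Ache with Srrt, Mphosph8 with the noncoding gene Gm16973 (0.9 each), Alg5 with the RNA exosome subunit gene Exosc8 (3.02 and 3.0), Ano8 with Dda1, and G6pdx with Ikbkg (2.16 and 2.14). G6pdx, which encodes glucose-6-phosphate dehydrogenase, and Ikbkg, which encodes the NF-kappaB regulator NEMO, met head to head on the X chromosome over 259 bases. G6pdx was at 33.7 and 28.3 TPM and Ikbkg at 18.7 and 16.0 TPM. Equal contigs did not always mean equal genes, since Exosc8 was at 59.4 and 59.1 TPM and Alg5 at 11.1 and 12.4 TPM.

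In the 5 least balanced pairs the contigs differed by 45.2-fold to 98.6-fold. Mef2d, a transcription factor gene, had a contig at 74.9 and the noncoding gene 1700113A16Rik one at 0.76, a ratio of 98.6-fold. Mef2d was at 315 and 270 TPM and 1700113A16Rik at 3.60 TPM in both libraries. The Pfn1 contig returned here with Eno3, the muscle enolase, at 200 and 2.90, a ratio of 69.0-fold. Ddx17, an RNA helicase, was at 83.3 and Kdelr3 at 1.27. Pdia3, a chaperone of the endoplasmic reticulum, was at 64.6 and Catsper2, known as a sperm ion channel gene, at 0.996, with 685 and 434 TPM against 1.74 and 2.09 TPM. Nrbp1 was at 34.2 and Ift172 at 0.756. The lower contig of each of these 5 pairs still carried 12 to 157 junction reads of its own strand.

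Divergent pairs were described further by 10 with the highest lower contig, a set chosen after their values were seen. Beside the 3 given above these were Slc39a7 with Rxrb, Hcfc1r1 with Thoc6, Rpl18 with Sphk2, Romo1 with Nfs1, Retreg2 with Cnppd1, Osgep with Apex1, and Ddx5 with Cep95. Slc39a7, a zinc transporter gene, had a contig level of 39.2 and Rxrb, a nuclear receptor gene, of 15.7 over 1463 bases. Slc39a7 was at 165 and 169 TPM and Rxrb at 129 and 106 TPM. Rpl18, of the large ribosomal subunit, was at 17.0 and Sphk2, a sphingosine kinase gene, at 13.7. The genes differed more, with 2041 and 1801 TPM for Rpl18 and 73.3 and 69.5 TPM for Sphk2. The Ddx5 contig, of an RNA helicase gene, was at 165 and that of Cep95 at 11.2, with 717 and 569 TPM against 7.53 and 8.16 TPM.

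RefSeq start sites, which the rule did not use, matched the geometry of the contigs. Of 186 head-to-head pairs with a promoter window for both genes, 165 (88.7%) had starts within 1000 bases of each other, at a median distance of 119 bases. In 127 of these 165 the RefSeq start of the minus-strand gene lies before that of the plus-strand gene, and in 38 the starts are crossed. Where a gene has several RefSeq starts, the closest pair of starts was taken, for every geometry. Starts lay within 1000 bases in 1 of 131 tail-to-tail pairs (0.763%) and in 36 of 134 nested pairs (26.9%). The 370 promoter windows of head-to-head pairs, at any distance, held a median of 27 CpG, against 22 in the 262 windows of tail-to-tail pairs and 7 in all 32851 windows. The TATA box was present in 4.59% of head-to-head windows, against 13.6% of all windows. The GC box was present in 67.8% against 35.7%, and the ETS site in 33.2% against 8.86%. The CCAAT box was present in 34.6% against 37.4%. Windows of tail-to-tail pairs had the TATA box in 3.82%, the CCAAT box in 38.9%, the GC box in 67.9% and the ETS site in 25.6%. The windows of a divergent pair can share bases and so are not independent, and the genes of the pairs are mostly expressed, with 1167 of 1185 at 1 TPM or more, while the full set was not limited by expression.

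**Figure D3:**
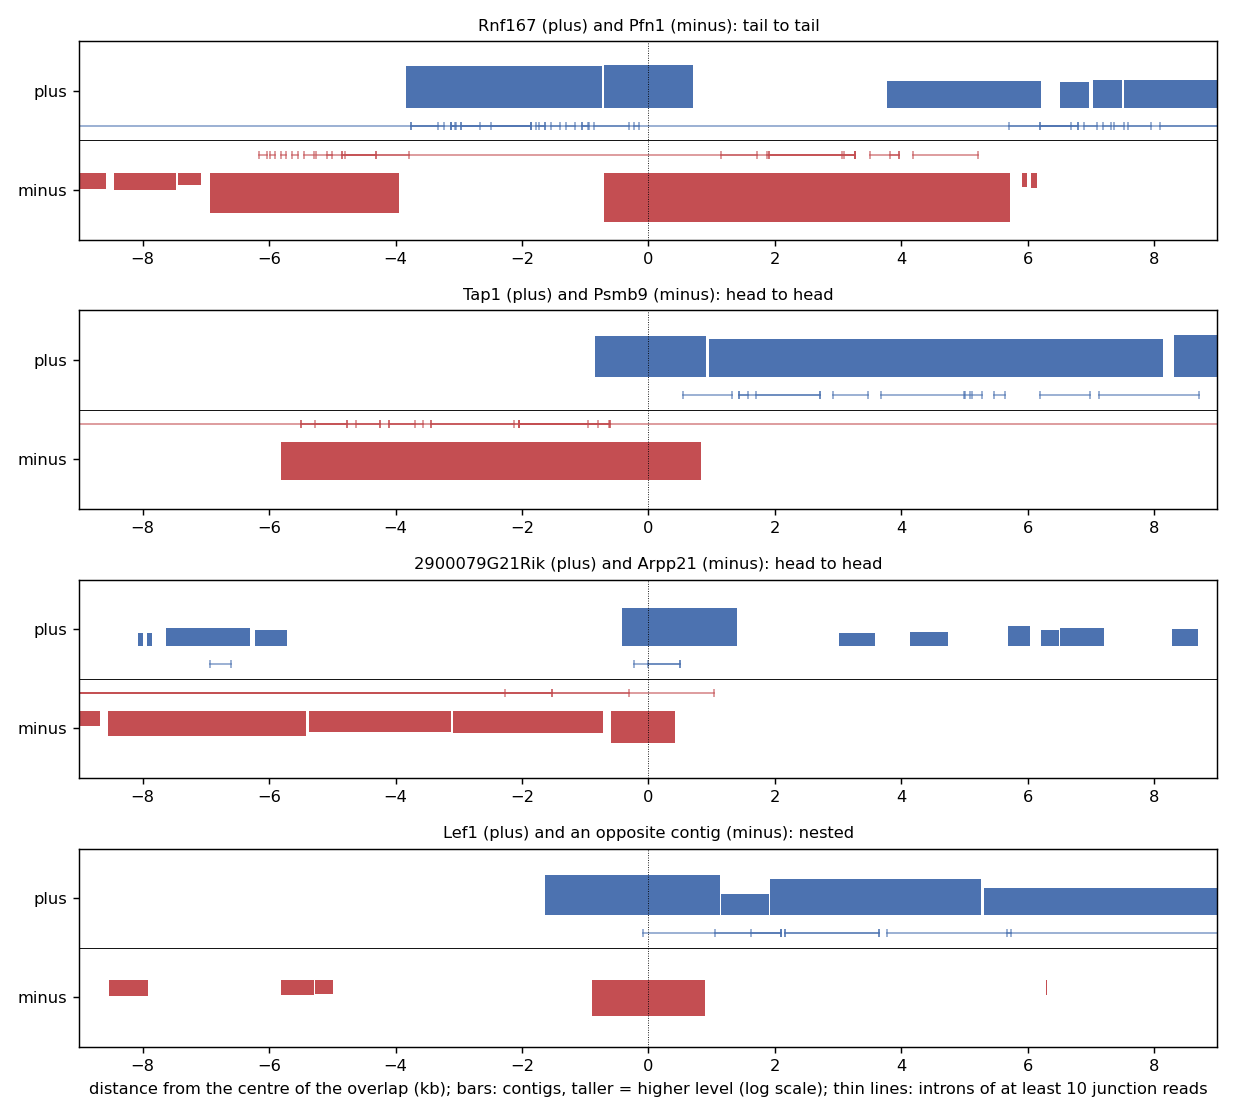
Contigs at or above the median level (bars, taller for higher levels on a log scale) and introns with at least 10 junction reads (thin lines) around 4 overlaps, plus strand above and minus strand below the line, by distance in kb from the centre of the overlap. Rnf167 and Pfn1 meet at their ends, Tap1 and Psmb9 as well as 2900079G21Rik and Arpp21 at their starts, and the 1800-base contig at Lef1 has no intron of its own.

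Some genes took part in chains of overlaps. In the Surf cluster on chromosome 2, the Surf1 contig (7.33) met the Rpl7a contig (19.6) tail to tail and the Surf2 contig (4.50) head to head, and Surf2 met the Surf4 contig (35.3) tail to tail. Wdr83 on chromosome 8 met Wdr83os head to head and Dhps tail to tail. The Wdr83os contig was at 11.1 and the Wdr83 contig at 7.34, and the Dhps contig was at 6.29 and a further Wdr83 contig at 3.75 over 2597 bases.

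Of 20 pairs listed as opposite-strand neighbours, 18 matched the annotation and 15 had both genes tied to junctions. Among these 15, 7 pairs had an overlap between contigs tied to both genes. They were Surf1 with Surf2, Surf2 with Surf4, Dhps with Wdr83, Thra with Nr1d1, Tbp with Pdcd2, Sars2 with Mrps12, and Hspe1 with Hspd1. Thra, a thyroid hormone receptor gene, had a contig at 13.9 inside a contig of the clock gene Nr1d1 at 6.39, over 991 bases. Thra was at 34.8 and 29.0 TPM and Nr1d1 at 28.9 and 29.7 TPM. The mitochondrial chaperonin genes Hspe1 (9.01) and Hspd1 (7.12) shared 296 bases head to head. Pdcd2 (1.40) and Tbp (1.26) shared 442 bases. Sars2 (8.47) and Mrps12 (4.89) shared 324 bases. For the imprinted pair Igf2r and Airn, no overlap joined a contig tied to Igf2r with a contig tied to Airn. Igf2r was at 26.7 and 21.9 TPM and Airn at 19.7 and 20.5 TPM. At these genes 3 overlaps paired a tied contig with an opposite contig tied to no gene. Whether those opposite contigs belong to the other gene was not tested, since a contig without a tied junction counts as no gene.

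Pairs outside the lists that hold a gene of immune cells are named after their values were seen. Ccdc22 at 1.85 and Foxp3, the transcription factor gene of regulatory T cells, at 1.72 overlapped over 1134 bases on the X chromosome. Ccdc22 was at 28.7 and 28.2 TPM and Foxp3 at 4.45 and 3.92 TPM, and 16 junction reads lay on the Foxp3 contig. The lymphocyte receptor gene Slamf6 had a contig at 3.99 with 295 junction reads, and the opposite gene Gm37065 one at 1.58 with 67 over 1203 bases. Slamf6 was at 38.9 and 40.8 TPM and Gm37065 at 15.3 and 14.9 TPM. The leukocyte tetraspanin gene Cd37 had a contig at 30.3 and Tead2 one at 1.22, with 344 and 332 TPM against 4.23 and 5.58 TPM. Vpreb1, of the surrogate light chain of B cell precursors, had a contig at 4.42 head to head with one of Top3b at 1.23, although Vpreb1 was at 8.40 and 13.7 TPM and Top3b at 86.2 and 79.7 TPM.

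The 4837 overlaps with a gene on one side held the contigs of 2807 genes. A contig at a low level is less easily tied, so the levels of gene and opposite contigs follow in part from the sorting. The opposite contig had a median level of 0.38, against 2.49 for the gene's contig, and the median ratio of opposite over gene contig was -2.56 on the log2 scale (5.91-fold lower). It was the higher of the 2 in 391 overlaps (8.08%). It touched a junction of its own in 242 (5.003%). In 3183 (65.8%) GENCODE M21 has a gene on its strand somewhere within the span of the tied gene. The share over all tied genes is not given, so this is a description and does not assign the opposite contig to that gene. Its edges coincided with those of the gene's contig, within 10 bases, in 6 overlaps (0.124%), and a splice site of the gene lay at least 20 bases inside it in 2634 (54.5%).

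Position along the gene went with geometry and level. Position and geometry are both read from where the contigs lie, so their relation follows in part from the definitions. In 789 overlaps (16.3%) the opposite contig lay before the first matched intron, and 66.8% of these were head to head, with a median level of 0.606 against 3.47 for the gene. In 3261 (67.4%) it lay between the first and last matched intron, where 61.7% were nested and the medians were 0.353 and 2.24. In 787 (16.3%) it lay after the last matched intron, where 25.3% were tail to tail and the medians were 0.381 and 3.20. The opposite contig was the higher one in 10.5% of overlaps before the first intron and in 5.46% of those after the last one.

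The median level of the opposite contig lay between 0.329 and 0.455 in every class of gene level plotted, while its upper quartile was larger at high gene levels. The median was 0.329 where the gene's contig was at 0.167 to 0.3 (31 overlaps), 0.341 at 1 to 3 (1852), 0.455 at 10 to 30 (516) and 0.407 at 30 to 100 (102). As a share of the gene's contig its median was 143%, 19.9%, 3.05% and 1.01% in those classes. The upper quartile was 0.598, 0.618, 1.15 and 1.19. The limit of 0.167 holds the lower end of these levels up, so opposite contigs below it were not seen, and the share can fall no further than the limit allows. Whether reads assigned to the wrong strand add to these levels was not tested.

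**Figure D4:**
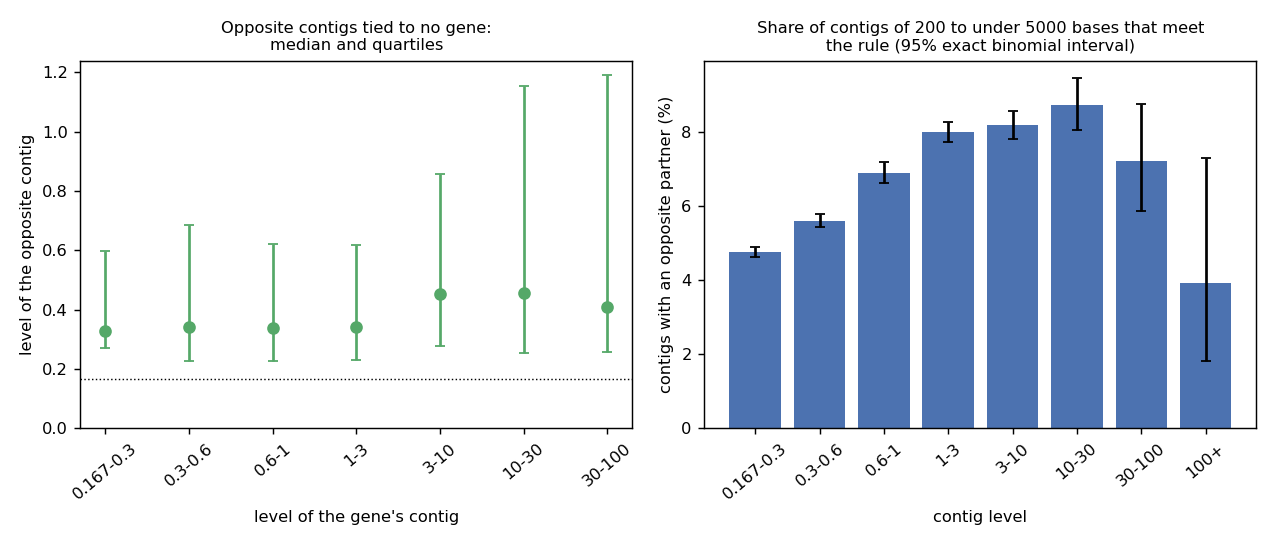
Left: median level of opposite contigs tied to no gene (points, with quartiles as bars) by the level of the gene's contig, with the limit of 0.167 as a dotted line. Right: share of contigs of 200 to under 5000 bases that have an opposite partner, by level, with 95% exact binomial intervals. Medians on the left stay between 0.329 and 0.455, and the share on the right is largest, 8.73%, at levels of 10 to 30.

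The highest opposite contigs faced genes whose GENCODE models overlap another gene on the opposite strand. They are named here after their values were seen, and because the contigs are on mm9 it was not tested which annotated gene, if any, each belongs to. A contig at 172 with 20389 junction reads shared 1921 bases tail to tail with the end of Rps6kb2 (11.9), whose model overlaps Coro1b and Ptprcap. A contig at 98.7 faced 1600020E01Rik (20.7), whose model overlaps Pcbp1, a gene without introns that the need for 2 matched introns cannot tie. Contigs at 22.7, 21.6 and 19 faced Gm11973 (7.40), Gm27184 (1.79) and Ndor1 (3.63), whose models overlap Purb, Tmem185b and Tmem203. The contig at 37.6 opposite Tulp4 (3.42) had no junction of its own, and the opposite genes in the span of Tulp4 are Gm15590, Gm22774 and Gm5812.

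T cell genes had overlaps at 22 of 44 tied genes of the list, against 3453 of 12407 tied genes of at least 1 TPM (27.8%). The list holds genes that are abundant in thymus, and the share of contigs with a partner varied with level as given above. Across 38 overlaps at these genes the opposite contig tied to no gene had a median level of 0.510, against 0.38 over all such overlaps, and the gene contig had a median of 16.1, against 2.49. In all but 2 genes, Arpp21 and Notch1, every opposite contig was below its gene's contig.

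The T cell gene that met a second gene was Arpp21, a gene of RNA-binding protein ARPP21 that is high in immature thymocytes. The noncoding gene 2900079G21Rik had a contig of 1828 bases on mm9 at chr9:112136693-112138520 (plus), with a level of 23.6 and 326 junction reads. The Arpp21 contig at chr9:112136514-112137533 (minus) had a level of 7.71 and 65 junction reads, and the shared stretch was 841 bases. The 2900079G21Rik gene was at 47.9 and 35.8 TPM and Arpp21 at 541 and 486 TPM. The higher contig was thus that of the lower gene, and the annotated exons overlap by 580 bases on GRCm38. The Arpp21 contig, of 1020 bases, holds only a part of its gene. Elsewhere in Arpp21 the opposite contigs were at 0.294 and 0.208.

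Lef1, a transcription factor of early T cell development, carried an opposite contig of 1800 bases at a level of 14.0 with no junction, inside a gene contig at 37.1 (chr3:130813784-130815583 and chr3:130813048-130815818 on mm9). The opposite gene within the GENCODE span of Lef1 is Gm43352. Lef1 was at 271 and 188 TPM. Dntt, which encodes the terminal transferase that adds bases at receptor gene joints, had an opposite contig at 5.53 with 27 junction reads against a gene contig at 69.3, before its first intron. Notch1, the receptor that commits cells to the T lineage, had one at 2.95 with 31 junction reads against a gene contig at 0.712. Notch1 was at 185 and 127 TPM, so the level of this gene contig does not stand for that of the gene. Cd8a, a co-receptor gene, had opposite contigs at 1.19 without and at 0.513 with junction reads (11), both against 88.2.

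Most of the other T cell genes had weaker opposite contigs with no junction of 10 reads. Cd247, the zeta chain of the T cell receptor complex, had 6, from 0.232 to 2.90, of which the highest faced a gene contig at 3.24. The constant region gene Trbc2 had one at 2.15 against 89.9, the chemokine receptor gene Ccr9 one at 1.97 against 64.9, the E protein gene Tcf12 one at 1.98 that met gene contigs at 15.4 and 10.5, and the transcription factor gene Bcl11b one at 1.45 against 18.7. Others lay below 1. Cd2 was at 0.813, Ikzf1 at 0.674, Cd8b1 at 0.588, Cd5 at 0.564, Cd3d at 0.535, Runx1 at 0.470, Lck at 0.319, Gata3 at 0.283, Cd3e at 0.281, Rag2 at 0.275 and Cd6 at 0.179, each the level of its highest opposite contig. The contig of Lck, the kinase of T cell receptor signalling, was at 103, so its opposite contig was far below it.

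**Figure D5:**
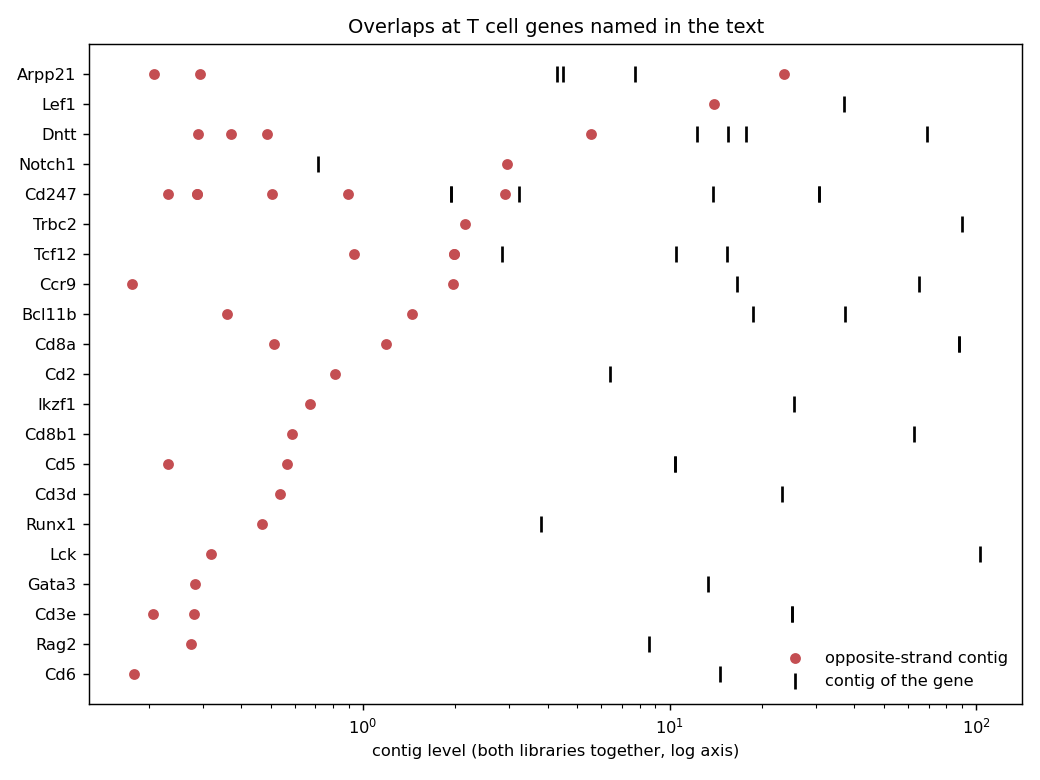
Levels of opposite-strand contigs (red points) and of the contigs of the T cell genes named in the text (black ticks), log axis, genes ordered by their highest opposite contig. Arpp21 at 23.6, Lef1 at 14.0 and Dntt at 5.53 have the highest opposite contigs. Only Arpp21 and Notch1 have one above the gene contig that it overlaps, which can hold only a part of the gene.

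Overlaps were present at 5 of 19 tied genes of the stromal and other cell list (26.3%) and at 5 of 15 housekeeping genes (33.3%), both near the 27.8% over tied genes of at least 1 TPM. Elavl1, of an RNA-binding protein, had a contig at 2.67 head to head with one at 1.30 of Ccl25, the chemokine of thymic epithelium that Ccr9 binds. Ccl25 was at 146 and 180 TPM and Elavl1 at 19.6 and 14.9 TPM. A contig of the Notch ligand gene Dll4 at 4.14 met one of Gm14207 at 2.33. Foxn1, the master regulator of thymic epithelium, had opposite contigs at 0.456 and 0.201 against 1.57, Ighm one at 2.33 against 116, and Pecam1 one at 0.337 against 7.26. Among housekeeping genes, Iffo1 (10.8) and Gapdh (10.6) shared 483 bases tail to tail, although Iffo1 was at 71.1 and 65.5 TPM and Gapdh at 3681 and 2937 TPM. This Gapdh contig, with 45 junction reads, holds only a part of the gene, and another Gapdh contig was at 84.1. Tbp, Tuba1b, Ppia and Ywhaz also had overlaps, with opposite contigs from 0.196 to 1.81.

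The 4242 overlaps with no tied gene had the lowest median levels of the 3 classes, which follows in part from the 10 junction reads that a tie needed. Few of their contigs can touch a junction, because 88.0% of junctions of at least 10 reads were tied to a gene and so place a contig in another class. A junction of its own strand was touched by at least one contig in 416 of them (9.81%), and by both in 19. The levels were within 2-fold in 51.3% of these overlaps. The highest joined a plus contig at 238 to a minus contig at 14.6 on chromosome 14 (chr14:9632399-9632808 and chr14:9632341-9633034 on mm9), with no junction on either strand. That plus contig is the highest of all 16513. Without a tied gene or a genome of this build, its annotation is not given here.

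Few genes of the pairs differed between the libraries. With 1 added to each TPM, 8 of 1167 genes of at least 1 TPM (0.686%) were more than 2-fold apart, against 2.84% of all 14360 genes. The level limit of the rule favours abundant genes, whose ratios vary less, so these shares describe sets of different level. With 1 group there is no test. Mybpc3, of cardiac muscle, had 45.7 TPM in replicate 2 and 2.03 TPM in replicate 1, the largest ratio. Eno3, at 59.7 and 20.95 TPM in replicates 2 and 1, Pgam2 (30.1 and 9.27 TPM), Tmem38a (25.3 and 9.28 TPM) and Perm1 (7.52 and 1.67 TPM) are also known from muscle and were higher in replicate 2, as was Rps6kl1 (8.53 and 3.03 TPM). Eps8l1 (3.45 and 20.6 TPM) and Dnttip1 (48.2 and 113 TPM) were lower in replicate 2.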

How the data were processed

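The authors deposited 1 list of contigs and 1 of splice junctions on mm9, both libraries together. Meanings were read from the values: the deposited signal is a level proportional to mean coverage, the deposited score a value for reproducibility, and junction counts, as deposited, whole reads. Per the file headers, the gene tables hold expected counts (estimated fragments) and TPM. Per the text files deposited with them, these were made on mm10 with GENCODE M4. Sources used here name neither the quantifier nor the contig caller.

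Overlaps were found by strand and position. A junction was tied to a gene of GENCODE M21 where at least 2 introns matched in exact length and spacing, with no coordinate converted, and 88.0% of 137243 junctions of at least 10 reads were tied. A contig took the gene with most reads among junctions of at least 10 reads on its strand within 5 bases. Pairs were named by lower level (15), length (10), balance (5 most and least) and gene lists. Members and lists were chosen with earlier results of these data known. A few named genes are not reported here. No test was made. On simulated contigs the overlap search gave the same number as a direct count. The gene ties were run on simulated junctions made from introns of the same annotation. That run does not give the accuracy of the ties on the mm9 lists. Python 3.11.15, pandas 2.3.3 and scipy 1.17.1 were used.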

Additional observations from a re-analysis of the deposited data

How the results depend on the processing

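Of 37 alternatives run on 12 results, 20 stayed within their limits, which for a count are 1.5 times either way. With overlaps of at least 100 bases there were 23059 contigs, and 15.9% were tail to tail, 24.5% head to head and 59.6% nested. With overlaps of at least 500 bases there were 6513 contigs and a median log2 ratio of higher over lower contig of 1.77. With both levels at or above the upper quartile there were 7487 contigs, 34.7% of overlaps head to head, 47.4% nested and a ratio of 1.54. With partners also under 5000 bases the ratio was 1.57. With any junction, 54.8% of contigs touched one of their own and 47.9% one of the opposite strand, and with at least 50 reads 20.8% and 12.4% did. The median of the pair genes was 33.3 to 33.7 TPM with either library left out and 42.3 CPM from the expected counts. The cause of these shifts was not tested, beyond the change in what is counted. Alternatives with at least 3 matched introns, other TPM limits or another pseudocount stayed within limits. Neither library was left out of the pooled lists: contigs have no value per library, and the per-replicate entries of junctions have no label. Depth limits which opposite contigs reach the level limit. No paired analysis was possible because there is 1 group.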
